A study of Mus musculus with 8 samples.

Results

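The pyruvate dehydrogenase kinases Pdk1, Pdk2, Pdk3 and Pdk4, the complex subunits Pdha1, Pdhb and Dlat, and the tricarboxylic acid (TCA) cycle enzymes Cs and Ogdh were followed across all 3 groups of a bulk RNA-seq study of whole mouse brain. These 9 genes were chosen by symbol, each matched 1 entry of the deposited count table, and together they are 9 of its 34299 genes. All 9 passed the filter on low counts in every comparison. The groups were wild-type (WT) fetuses at gestation day 15 (n = 3), Cav1 knockout (KO) fetuses at gestation day 15 (n = 3) and Cav1 KO brains at week 70 (n = 2). The day 15 KO and the week 70 groups carry the same knockout, of the gene for caveolin-1, the main structural protein of caveolae, which are small pits of the cell membrane. Without a week 70 WT group among these libraries, age was compared within the KO genotype, and genotype only at day 15. The labels name no strain, litter, sex, batch or date, and do not say how the knockout was made. They call the fetal samples biological replicates, and say nothing of that kind on the week 70 samples, whose p-values may measure only technical spread.

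Pyruvate dehydrogenase is the mitochondrial complex that turns pyruvate, the end product of glycolysis, into acetyl-CoA. Its E1 enzyme is built from the Pdha1 and Pdhb products, its E2 core from the Dlat product, and its E3 enzyme, dihydrolipoamide dehydrogenase, from the Dld product. The PDK kinases switch the complex off by phosphorylating E1, and the PDP phosphatases switch it back on. Citrate synthase, from Cs, then joins acetyl-CoA with oxaloacetate as the entry step of the TCA cycle, and Ogdh encodes the E1 enzyme of the related 2-oxoglutarate dehydrogenase. In brain this step sets how much glucose carbon is oxidised in mitochondria, and Pdk4 is known as the kinase that rises with fasting and fatty acid use.

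Totals were 19414747 to 20833397 counts in the WT libraries, 14110031 to 15245283 in the day 15 KO libraries and 18924304 to 20203233 in the week 70 libraries. Every day 15 KO library was shallower than every WT library, so depth and genotype cannot be told apart. Cav1 itself had 367, 218 and 329 counts in the WT libraries, 0, 3 and 1 in the day 15 KO libraries and 1 and 5 at week 70, which fits the labels. At day 15, 62.6% of the 19147 genes tested were called, 5768 higher and 6225 lower in KO, or 7627 higher and 4915 lower under upper-quartile scaling. That scaling put the all-gene median of log2 differences at 0.20, against 0.03. Across genes, the day 15 difference also followed transcript length and GC content, with Spearman correlations of -0.37 and -0.48. Genes are not independent replicates, so these are descriptions. Member values are therefore also given after an offset for both properties. Levels below are CPM, counts scaled to a common library size, after TMM scaling over the 8 libraries, and in whole tissue fewer cells of a type and less RNA per cell cannot be told apart.

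The promoters of the 4 kinase genes are shown because these genes share a substrate, yet their levels differed between groups by unequal amounts. Each run is the 250 bases before 1 start of transcription in RefSeq (GRCm38.p6), read 5′ to 3′ on the gene's own strand. RefSeq gives 2 starts each for Pdk1 and Pdk2 and 6 for Ogdh. The start nearest the gene's start in GENCODE was used, and the others were not searched. Capitals mark matches on either strand to ACGTG and GCGTG, cores bound by hypoxia-inducible factors, and to AGGTCA, the half-site of many nuclear receptors. The windows are chr2:71872974-71873223 on the plus strand for Pdk1, and on the minus strand chr11:95041372-95041621 for Pdk2, chrX:93832151-93832400 for Pdk3 and chr6:5496279-5496528 for Pdk4.
Pdk1: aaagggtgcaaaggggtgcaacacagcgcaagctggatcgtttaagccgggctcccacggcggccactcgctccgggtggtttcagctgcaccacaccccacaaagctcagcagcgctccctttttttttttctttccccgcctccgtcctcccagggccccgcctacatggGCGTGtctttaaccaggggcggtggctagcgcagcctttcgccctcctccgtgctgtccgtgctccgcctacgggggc
Pdk2: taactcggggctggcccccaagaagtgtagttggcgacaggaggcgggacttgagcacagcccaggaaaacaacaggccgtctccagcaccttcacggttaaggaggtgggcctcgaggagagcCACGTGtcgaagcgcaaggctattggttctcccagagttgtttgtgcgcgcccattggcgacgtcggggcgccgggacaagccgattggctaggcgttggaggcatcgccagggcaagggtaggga
Pdk3: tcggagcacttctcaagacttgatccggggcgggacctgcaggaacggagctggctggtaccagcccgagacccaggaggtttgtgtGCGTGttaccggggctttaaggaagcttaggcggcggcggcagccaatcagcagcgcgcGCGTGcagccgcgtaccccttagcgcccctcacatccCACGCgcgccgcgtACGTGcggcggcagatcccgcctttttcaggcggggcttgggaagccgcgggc
Pdk4: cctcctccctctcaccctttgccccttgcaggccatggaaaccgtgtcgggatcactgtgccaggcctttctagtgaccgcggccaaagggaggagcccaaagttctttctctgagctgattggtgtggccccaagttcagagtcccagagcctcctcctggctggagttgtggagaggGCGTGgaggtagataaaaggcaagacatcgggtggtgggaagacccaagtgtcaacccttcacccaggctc

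Among these 4 windows that of Pdk3 was the richest in GC, at 67.6% with 29 CpG, and that of Pdk4 the poorest, at 58.8% with 6 CpG. Of the capital letters, Pdk3 held 1 match to the hypoxia core that begins with A and 3 to the core that begins with G. Pdk2 held the palindrome CACGTG, which reads as the first core once on each strand, while Pdk1 and Pdk4 each held 1 match to the second. The first core was found in 4 of the 9 promoters, against 16.6% of 32851 RefSeq promoters of the same length, and the second in 6 of 9 against 28.2%. None of the 9 held the nuclear receptor half-site, which 14% of all promoters held. The CCAAT box, searched by those letters on both strands, was found in 6 of 9 against 33.8%.

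Among longer motifs, also searched on both strands, the Sp1 box GGGCGG was found in 6 of the 9 promoters, against 32.7% of all. The forkhead core TGTTTAC was found in 0 of 9 against 3.17%. The TATA box, searched as TATAAA, was found in 0 of 9 against 12.4%. The background promoters were not matched for GC content, which ran from 55.2% to 67.6% in the 9 windows, so these shares do not show enrichment. A match describes the letters of these windows and says nothing on whether a factor binds there.

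Among the kinases at day 15, Pdk2 was the one with the largest difference: it was 3.06-fold lower in KO, while Pdk1 was 1.19-fold higher and Pdk4, the least abundant, 1.66-fold lower. Pdk2, a kinase made in most tissues and located at 11:95026258-95041354 (GRCm38, minus strand), had 23.1, 25.0 and 24.2 CPM in the WT libraries and 9.08, 6.17 and 7.76 CPM in the KO libraries. Every KO library lay far below every WT library. The log2 fold change of Pdk2 was -1.61 (SE 0.133, adjusted p = 2.25e-06, edgeR quasi-likelihood test with Benjamini-Hochberg adjustment over all genes, as for every adjusted p below unless another test is named). With the offset for length and GC content the Pdk2 log2 fold change was -1.22 (adjusted p = 3.41e-05, edgeR).

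Pdk1, the kinase best known as a target of hypoxia-inducible factors and located at 2:71873224-71903858 on the plus strand, had 34.1, 32.6 and 28.5 CPM in WT and 35.9, 36.7 and 37.9 CPM in KO. The groups did not overlap, but the highest WT library lay close to the lowest KO library, and WT replicate 3 was the lowest of all. For Pdk1 the log2 fold change was 0.25 (SE 0.0808, adjusted p = 0.0185, edgeR). That call was lost without WT replicate 3 (0.17, adjusted p = 0.0841, edgeR), without KO replicate 2 (0.25, adjusted p = 0.0590, edgeR), without KO replicate 3 (0.23, adjusted p = 0.0503, edgeR) and with no filter on low counts (0.16, adjusted p = 0.141, edgeR). With the offset for length and GC content Pdk1 differed more, with a log2 fold change of 0.48 (adjusted p = 0.000345, edgeR).

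Pdk3, a kinase with an X-linked gene (X:93764607-93832201, minus strand), had 15.5, 13.7 and 13.3 CPM in WT and 11.7 CPM in each of the 3 KO libraries. All KO libraries lay below all WT libraries, and WT replicate 1 stood above the other WT libraries. In the test, Pdk3 had a log2 fold change of -0.23 (SE 0.104, adjusted p = 0.0731, edgeR) and was not called. It was called with the offset for length and GC content (-0.42, adjusted p = 0.00569, edgeR) and with no filter on low counts (-0.32, adjusted p = 0.0401, edgeR).

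Pdk4 (6:5483351-5496309, minus strand) rested on few reads, 35, 33 and 35 counts in the WT libraries and 13, 19 and 19 counts in the KO libraries. Its levels were 1.64, 1.65 and 1.76 CPM in WT and 0.787, 1.06 and 1.10 CPM in KO. The WT libraries lay together and above every KO library, and KO replicate 1 was the lowest. The log2 fold change of Pdk4 was -0.73 (SE 0.258, adjusted p = 0.0302, edgeR). That call did not hold without WT replicate 1 (adjusted p = 0.0565, edgeR), WT replicate 2 (0.0615), WT replicate 3 (0.0783) or KO replicate 1 (-0.61, 0.0954). It did not hold under upper-quartile scaling (-0.56, adjusted p = 0.0801, edgeR) or in DESeq2 (-0.74, adjusted p = 0.129) either.

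**Figure D1:**
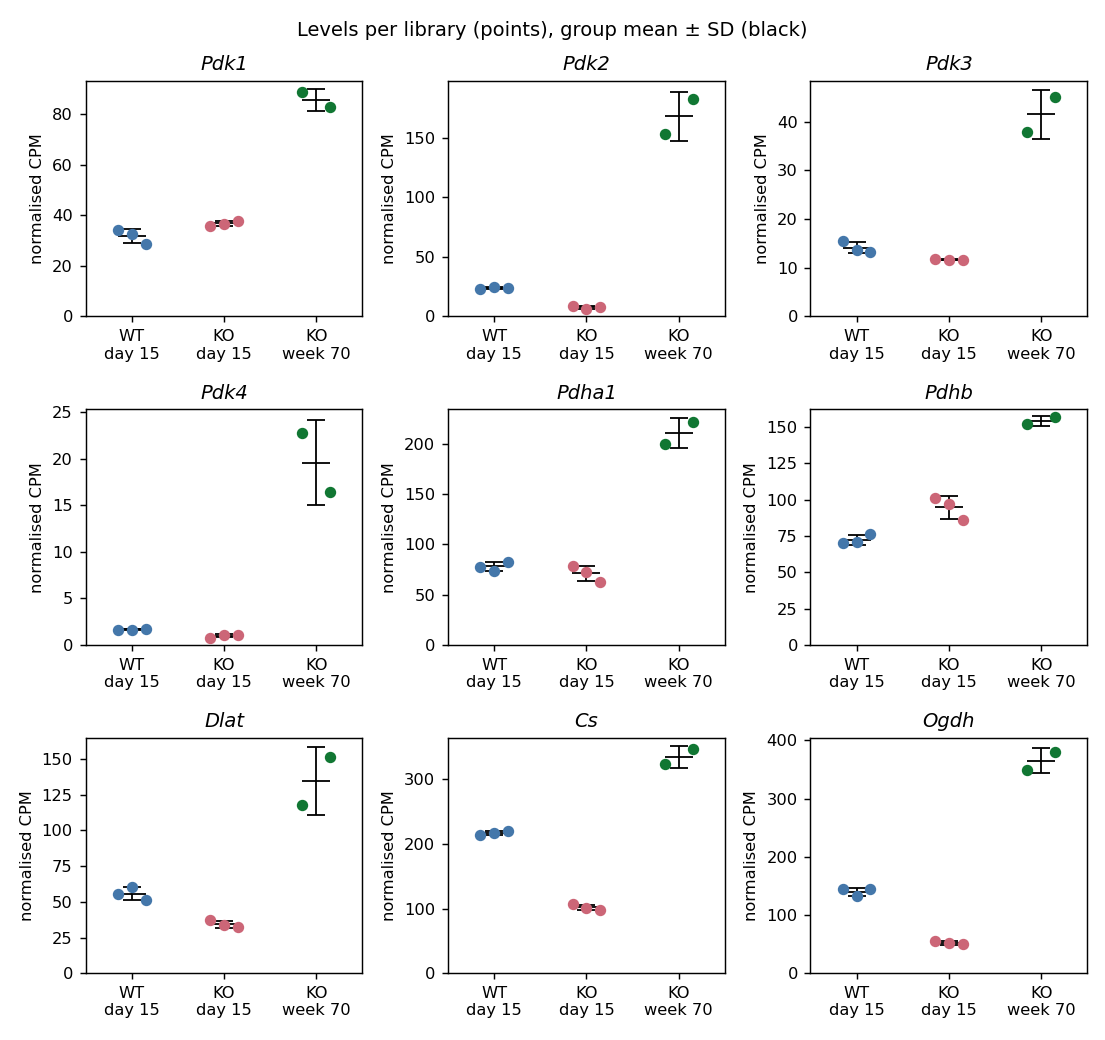
Normalised CPM of the 9 genes in each of the 8 libraries, 1 point per library with the mean and SD of each group. The week 70 libraries lie above both fetal groups for all 9 genes, and the day 15 groups overlap for Pdha1 alone.

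Among the complex subunits at day 15, the E1 partners parted: Pdhb was 1.35-fold higher in KO, Pdha1 showed no called difference, and Dlat was 1.57-fold lower. Pdha1, the X-linked E1 alpha subunit that carries the sites the kinases phosphorylate (X:160122209-160138413, minus strand), had 77.2, 73.9 and 82.9 CPM in WT and 78.1, 72.5 and 62.9 CPM in KO. These groups overlapped, and KO replicate 3 was the lowest. The log2 fold change of Pdha1 was -0.09 (SE 0.0786, adjusted p = 0.324, edgeR), was 0.08 under upper-quartile scaling (adjusted p = 0.386, edgeR), and was called at -0.29 with the offset for length and GC content (adjusted p = 0.0149, edgeR). Its exons share 603 bases with Map3k15 on the opposite strand, which had 5 to 58 counts per library against 1086 to 3210 for Pdha1. Whether the counting used strand is not given in the sources used here.

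Pdhb, the E1 beta subunit (14:8165996-8173025, minus strand), had 70.0, 70.8 and 76.2 CPM in WT and 101, 97.2 and 86.1 CPM in KO. All KO libraries lay above all WT libraries. Pdhb rose by a log2 fold change of 0.43 (SE 0.0692, adjusted p = 0.000298, edgeR), or 0.22 with the offset (adjusted p = 0.0289, edgeR). Dlat, the E2 acetyltransferase that carries lipoate (9:50634633-50659780, minus strand), had 55.7, 60.1 and 51.0 CPM in WT and 37.0, 34.0 and 32.3 CPM in KO, again with no overlap. Dlat had a log2 fold change of -0.65 (SE 0.0802, adjusted p = 4.3e-05, edgeR), and -0.53 with the offset.

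Both TCA cycle enzymes were lower in KO at day 15, Cs 2.07-fold and Ogdh 2.60-fold. Cs (10:128337734-128362479, plus strand) had 214, 217 and 221 CPM in WT and 107, 101 and 98.8 CPM in KO, and each group was tight beside the gap between them. For Cs the log2 fold change was -1.05 (SE 0.0563, adjusted p = 1.14e-07, edgeR), and -1.02 with the offset for length and GC content. Ogdh (11:6291633-6356642, plus strand) had 144, 133 and 145 CPM in WT and 56.2, 51.7 and 49.9 CPM in KO. No KO library reached the lowest WT library. For Ogdh it was -1.38 (SE 0.0621, adjusted p = 4.25e-08, edgeR), and -0.89 with the offset.

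Of the 9 genes, 2 rose (Pdk1, Pdhb), 5 fell (Pdk2, Pdk4, Dlat, Cs, Ogdh) and 2 were not called at day 15, which is 77.8% called against 62.6% of all genes tested (30.1% higher and 32.5% lower). The groups did not overlap for 8 of the 9, against 68.5% of all genes tested. With so many genes called, a count of this size is little more than the background. The median log2 fold change of the 9 was -0.65, against 0.03 over all genes. With the offset for length and GC content 2 were higher and 7 lower, while 51% of 19050 genes were called. Without WT replicate 1, which also held the most RNA of connective tissue genes, 2 were higher and 4 lower, since Pdk4 was no longer called.

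**Figure D2:**
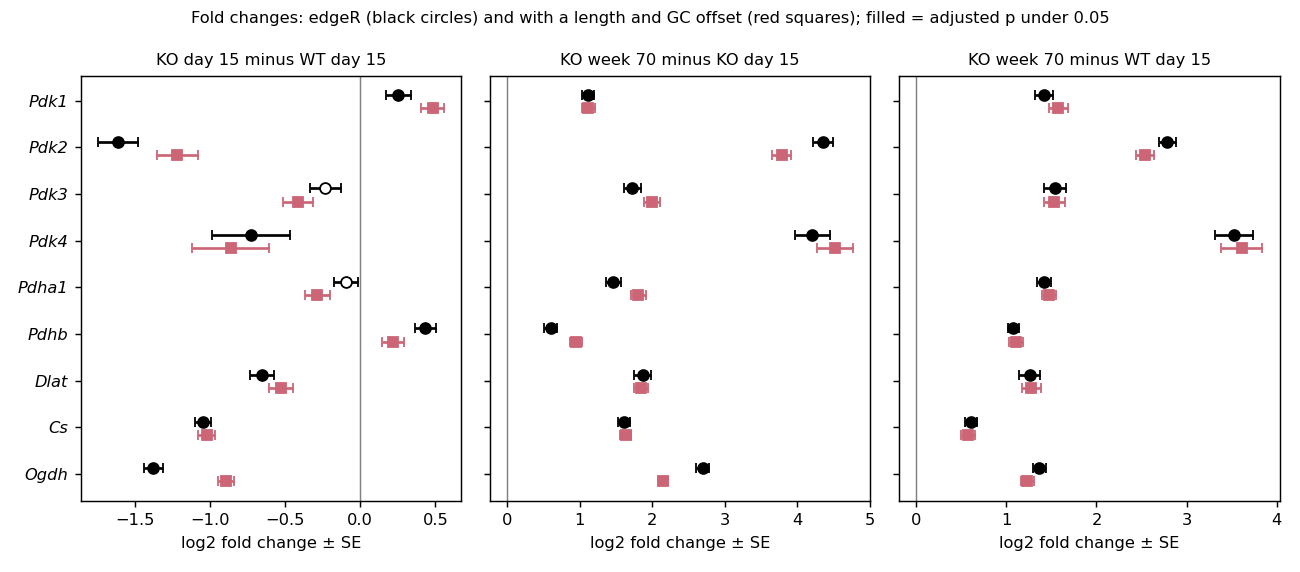
Log2 fold changes of the 9 genes with their standard errors, for day 15 KO against WT, week 70 KO against day 15 KO, and week 70 KO against day 15 WT. At day 15 the values run from -1.61 for Pdk2 to 0.43 for Pdhb, and all 9 are above 0 in both comparisons with week 70.

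After TMM scaling, all 9 genes were higher in KO brain at week 70 than at day 15, from 1.52-fold for Pdhb to 20.5-fold for Pdk2. Over the 8 libraries, the TMM factors were 1.17 to 1.18 in the day 15 KO libraries and 0.751 to 0.767 at week 70. Pdk2 had 154 and 183 CPM at week 70, against 6.17 to 9.08 CPM at day 15. Its log2 fold change was 4.36 (SE 0.142, adjusted p = 8.81e-10, edgeR). Pdk4 had 22.8 and 16.4 CPM at week 70 against 0.787 to 1.10 CPM at day 15, a log2 fold change of 4.21 (SE 0.244, adjusted p = 5.91e-08, edgeR). Both had larger fold changes than Pdk3, which had 38 and 45.2 CPM at week 70, and Pdk1, which had 88.7 and 82.6 CPM. The log2 fold change was 1.73 for Pdk3 (SE 0.12, adjusted p = 2.56e-07, edgeR) and 1.12 for Pdk1 (SE 0.0857, adjusted p = 5.63e-07, edgeR).

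The complex subunits rose less than Pdk2 and Pdk4, by point estimate, and the differences between genes were not tested. Pdha1 had 200.02 and 221 CPM at week 70, a log2 fold change of 1.47 (SE 0.102, adjusted p = 2.63e-07, edgeR). Pdhb had 152 and 157 CPM, a log2 fold change of 0.60 (SE 0.091, adjusted p = 0.000125, edgeR), and Dlat had 118 and 151 CPM, a log2 fold change of 1.87 (SE 0.115, adjusted p = 9.7e-08, edgeR). Pdhb counts were 1674, 1750 and 1487 in the day 15 KO libraries and 2304 and 2273 at week 70. These counts rose about as the library totals did, so the Pdhb call rests on the scaling. In TMM-scaled CPM, every week 70 library lay above every day 15 KO library for each subunit. Cs had 323 and 347 CPM and a log2 fold change of 1.61 (SE 0.0835, adjusted p = 2.49e-08, edgeR). Ogdh had 349.7 and 381 CPM and a log2 fold change of 2.70 (SE 0.0899, adjusted p = 1.02e-09, edgeR).

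All 9 of 9 genes were called higher with no overlap in this comparison, where 82% of 20000 genes were called (37.6% higher and 44.4% lower) and 87.9% did not overlap. Their median log2 fold change was 1.73, against -0.19 over all genes and a median size of 1.40 in either direction. With the offset for length and GC content the log2 fold changes ran from 0.95 for Pdhb to 4.52 for Pdk4, and Pdk2 stood at 3.78. The week 70 brains also held far more glial RNA: the summed level of the oligodendrocyte markers was 13355 to 13474.5 CPM against 86.9 to 92.5 CPM in the day 15 KO libraries. The astrocyte markers summed to 7978 to 8611 CPM against 244 to 258 CPM, and the neuron markers to 8822 to 8934 CPM against 2094 to 2210 CPM. All 7 of 7 astrocyte and 7 of 7 oligodendrocyte markers were higher at week 70, and none of them was at 0 throughout a group. The 2 week 70 libraries stood far apart in choroid plexus markers, at 71.8 and 2391 CPM in all, where Ttr had 910 counts in replicate 1 and 32809 in replicate 2. Every call on the 9 genes held without either week 70 library, the one left being assumed to vary like the day 15 group. The part of cell makeup in the rise of the 9 genes was not tested.

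Set against the day 15 WT libraries, which differ from week 70 KO in genotype and age together and are shared with the first comparison, all 9 were higher at week 70. Here 78.6% of 19465 genes were called (36.7% higher and 41.9% lower) and 86.5% did not overlap. Pdk4 had the largest log2 fold change, 3.53 (SE 0.2141, adjusted p = 4.14e-06, edgeR), followed by Pdk2 at 2.79 (SE 0.0899, adjusted p = 2.42e-07, edgeR). Cs had the smallest, 0.61 (SE 0.0648, adjusted p = 8.77e-05, edgeR). The other 6 lay between 1.08 for Pdhb and 1.54 for Pdk3. The median over the 9 was 1.42, against -0.16 over all genes.

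Dividing CPM by the length of the longest transcript in kilobases (kb) lets the genes be set beside one another. In WT at day 15 the mean level per kb was 72.4 CPM for Cs, 34.1 for Ogdh, 30.4 for Pdhb, 27.4 for Pdha1, 13.8 for Dlat, 10.7 for Pdk2, 6.69 for Pdk3, 6.12 for Pdk1 and 0.482 for Pdk4. The Pdhb libraries (29.4 to 32.0 per kb) nearly touched those of Ogdh (32.1 to 35.1) above and of Pdha1 (26 to 29.1) below, and Pdk3 (6.27 to 7.31) overlapped Pdk1 (5.5 to 6.57). In KO at day 15 the order began with Pdhb at 39.9 CPM per kb, then Cs at 34.1, Pdha1 at 25.0, Ogdh at 12.7, Dlat at 8.53, Pdk1 at 7.10, Pdk3 at 5.53, Pdk2 at 3.42 and Pdk4 at 0.282. No neighbours in that order overlapped, so Pdk2 stood below Pdk1 and Pdk3 there and above both in WT. At week 70 Cs led at 111 CPM per kb, followed by Ogdh at 88.5, Pdk2 at 74.8 and Pdha1 at 74.0, whose libraries overlapped, and Pdhb at 64.9. Below them were Dlat at 33.3, Pdk3 at 19.7, Pdk1 at 16.5 and Pdk4 at 5.63 CPM per kb. These orders depend on the length used. With CPM not divided by length, Ogdh (365) stood above Cs (335) at week 70, and Pdk1 (31.7) above Pdk2 (24.1) in WT. The coding part also differs between genes, at 3102 of 4127 bases for Ogdh and 1170 of 2848 for Pdha1.

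The make-up of the kinase transcripts followed. Of the summed level per kb of the 4 kinases, Pdk2 made up 44.7% ± 2.63 in WT (SD, n = 3), 20.8% ± 3.30 in day 15 KO (SD, n = 3) and 64.1% ± 2.66 at week 70 (SD, n = 2). Pdk1 made up 25.5% ± 1.44, 43.5% ± 2.01 and 14.2% ± 1.86 in the same groups. Pdk2 was thus the leading kinase in WT and at week 70, and Pdk1 the leading one in day 15 KO. Pdk3 made up 27.8% ± 1.63, 33.9% ± 1.18 and 16.8% ± 0.702, and Pdk4 made up 2.01% ± 0.154, 1.73% ± 0.329 and 4.89% ± 1.51.

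Between the day 15 groups the Pdk1 share was 18.1 percentage points higher in KO and the Pdk2 share differed by -23.9 points, both without overlap (exact two-sided permutation p = 0.1, 0.1125 after adjustment over 27 tests). With these group sizes 0.1 is the smallest p either kind of comparison can give, so none of the 27 tests of shares and ratios could pass the threshold. The Pdk4 share overlapped between the day 15 groups (exact permutation p = 0.2, a difference of -0.28 points). The leading kinase in WT depended on the length used: with coding length Pdk1 made up 42.8% and Pdk2 34.8%, and with CPM not divided by length 44.2% and 33.7%. The Pdk3 difference at day 15 was 6.08 points, but 1.03 points with coding length and 0.74 with CPM.

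**Figure D3:**
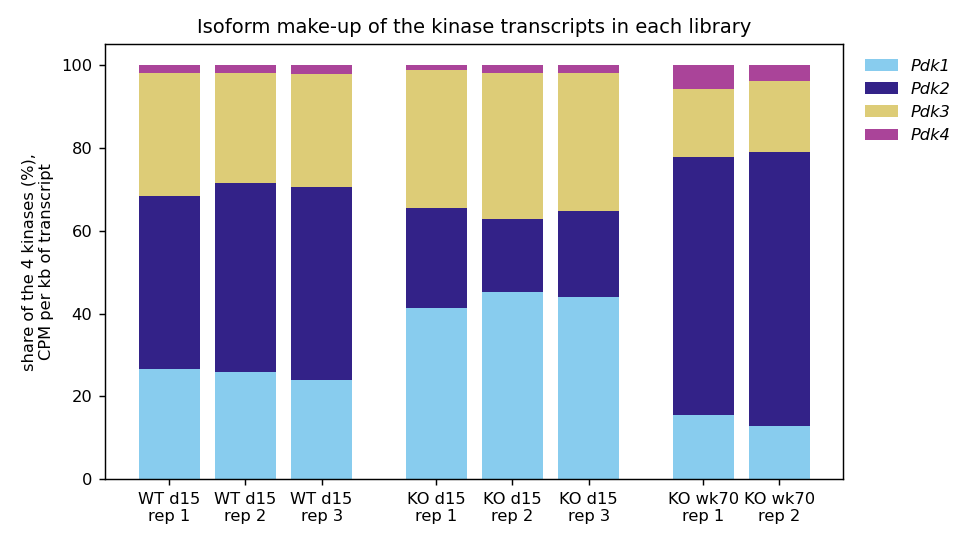
Share of each kinase in the summed CPM per kb of the 4 kinases, in percent, for each library. The Pdk2 share is lowest in the day 15 KO libraries (20.8% on average) and highest at week 70 (64.1%), and the Pdk1 share runs the other way.

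Summed over the 4 kinases, the level per kb was 24.0 ± 0.840 CPM in WT, 16.3 ± 0.603 in day 15 KO and 117 ± 9.40 at week 70. The log2 ratio of this sum to Pdha1, the kinases' substrate subunit, was -0.14, -0.09 and -0.34 in the WT libraries, -0.71, -0.70 and -0.41 in the day 15 KO libraries, and 0.65 and 0.67 at week 70. KO replicate 3 lay closest to the WT libraries, and no 2 groups overlapped. The day 15 difference in this log2 ratio was -0.42 (exact permutation p = 0.1), or -0.21 with coding length and -0.19 with CPM not divided by length, where the groups overlapped (exact permutation p = 0.2 for each). Between week 70 and day 15 KO it was 1.27 (exact permutation p = 0.1). The ratio was not recomputed with the offset for length and GC content, so whether the lower day 15 KO value holds with it was not tested. With that offset the day 15 log2 fold changes were 0.48 for Pdk1, -1.22 for Pdk2, -0.42 for Pdk3, -0.86 for Pdk4 and -0.29 for Pdha1.

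Within the complex, the mean log2 ratio of Pdha1 to Pdhb was -0.15 in WT, -0.68 in day 15 KO and 0.19 at week 70, with no overlap of groups. That of Dlat to Pdha1 was -0.99, -1.55 and -1.16 in the same order, and the week 70 libraries overlapped with WT (exact permutation p = 0.4). With the offset for length and GC content, the day 15 log2 fold changes of Dlat and Pdha1 lay closer together, at -0.53 and -0.29. Beyond the complex, the ratio of Cs to Pdha1 was 1.40, 0.45 and 0.59 on the log2 scale, and the week 70 libraries overlapped those of day 15 KO (exact permutation p = 0.3). The log2 ratio of Ogdh to Cs was -1.09, -1.42 and -0.33. The lower day 15 KO value did not hold with the offset for length and GC content, where Ogdh fell less than Cs (log2 fold changes -0.89 and -1.02).

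**Figure D4:**
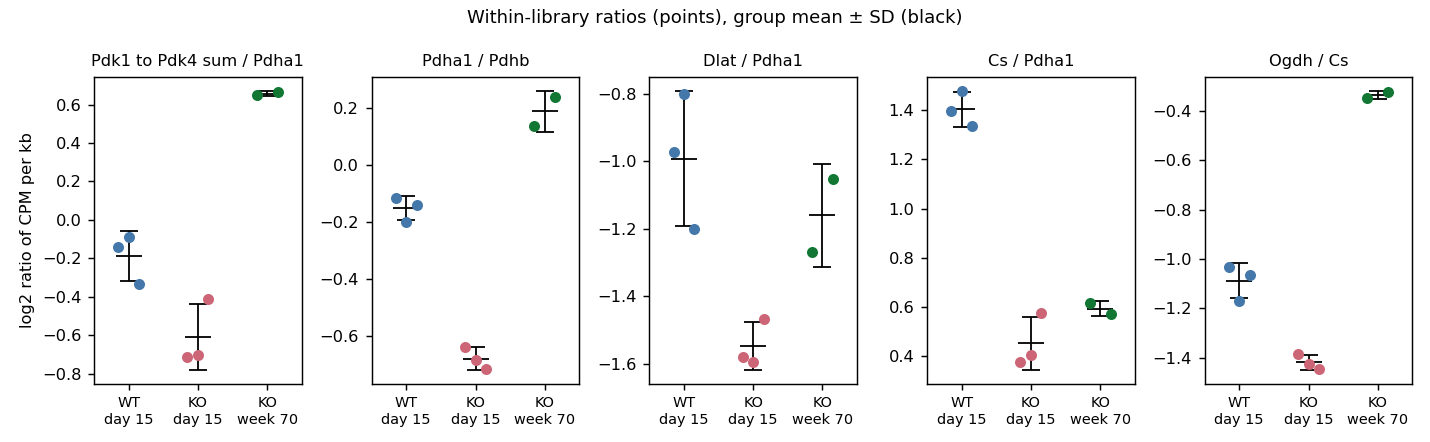
Log2 ratios of CPM per kb in each library: the 4 kinases to Pdha1, Pdha1 to Pdhb, Dlat to Pdha1, Cs to Pdha1 and Ogdh to Cs, with group means. The kinase to Pdha1 ratio averages -0.19 in WT, -0.61 in day 15 KO and 0.66 at week 70.

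Genes around the complex were counted from lists chosen by function, with earlier results of these data known, so the counts are descriptions. Of 5 tested partners of pyruvate dehydrogenase, 2 were higher and 2 lower in KO at day 15 (median log2 fold change -0.07). Pdp2, a phosphatase that reactivates E1, had 27.4 ± 1.15 CPM in WT and 12.2 ± 1.0 CPM in KO (SD, n = 3 each), and fell by 1.12 on the log2 scale (adjusted p = 2.64e-06, edgeR). The other phosphatase, Pdp1, named here after its values were seen, was called at 0.29 without and at -0.21 with the offset for length and GC content, in opposite directions. Dld, the E3 enzyme, had 81.8 ± 3.56 CPM in WT and 119 ± 1.36 CPM in KO, a log2 fold change of 0.58 (adjusted p = 6.52e-06, edgeR), but -0.10 with the offset, where it was not called. With the offset 0 partners were higher and 3 lower.

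Upstream, 3 of 13 genes of pyruvate supply were higher and 7 lower at day 15 (median log2 fold change -0.25). Pkm, the last enzyme of glycolysis, had 568 ± 11.4 CPM in WT and 249 ± 27.0 CPM in KO (log2 fold change -1.15, adjusted p = 4.64e-07, edgeR). Pcx, which turns pyruvate into oxaloacetate, had 35.6 ± 2.90 CPM in WT and 12.2 ± 1.51 CPM in KO (log2 fold change -1.51, adjusted p = 7.23e-07, edgeR). Downstream, 5 of 16 other TCA cycle genes were higher and 6 lower (median 0.01). Sdha, a subunit of succinate dehydrogenase, was called lower (-0.90). The enzyme's other subunits, named here after their values were seen, parted from Sdha. Sdhb (0.81) and Sdhd (0.33) were called higher, and Sdhc (0.05) was not called. With the offset Sdhb (0.72) and Sdhc (0.13) were called higher, and Sdhd (-0.02) was not called. Of 12 genes for the lipoate and thiamine cofactors of the complex, 5 were higher and 3 lower (median 0.21). The iron-sulfur assembly genes Nfu1 (0.84, adjusted p = 1.88e-05, edgeR) and Bola3 (0.93, adjusted p = 0.000501, edgeR), needed for lipoate synthesis, rose. Of 7 sister dehydrogenase genes 0 were higher and 2 lower, Bckdha of the branched-chain complex (-0.97) and its kinase Bckdk (-0.36, but 0.02 and not called with the offset).

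Of 15 known regulators of the kinase genes, 0 were higher and 9 lower in KO at day 15 (median log2 fold change -0.55), where 30.1% of all genes were higher and 32.5% lower. They were 2 higher and 9 lower with the offset, and 0 higher and 7 lower under upper-quartile scaling. Epas1, the hypoxia-inducible factor typical of endothelium, had 39.3 ± 6.61 CPM in WT and 5.79 ± 0.752 CPM in KO (log2 fold change -2.72, adjusted p = 9.26e-08, edgeR). Foxo3, a factor known to induce Pdk4, had 58.1 ± 3.09 CPM in WT and 16.3 ± 1.62 CPM in KO (log2 fold change -1.79, adjusted p = 4.71e-08, edgeR). Of 12 hypoxia response genes 3 were higher and 7 lower (median -0.51), among them the glucose carrier Slc2a1 (-2.0, adjusted p = 2.75e-08, edgeR) and Ndrg1 (-0.99). Of 13 genes known to respond to PPAR or FOXO factors 1 was higher and 10 were lower (median -0.74). They were led by Irs2 (-2.35, adjusted p = 2.1e-08, edgeR) and Cpt1a, a carnitine palmitoyltransferase of fatty acid use (-1.64, adjusted p = 2.33e-07, edgeR). Except for Pdp1, Dld, Sdhd and Bckdk, every gene named from a list at day 15 kept its direction with the offset. Several log2 fold changes were much smaller with it: -0.74 for Pcx, -0.68 for Pkm, -0.98 for Foxo3, -1.40 for Irs2, -0.61 for Bckdha and -0.65 for Ndrg1. The offset counts were 3 higher and 5 lower for pyruvate supply (median -0.10), 4 and 7 for the other TCA cycle genes (-0.11), 5 and 0 for the cofactors (0.17) and 1 and 3 for the sister dehydrogenases (-0.46). They were 3 and 5 for the hypoxia genes (-0.25) and 0 and 8 for the PPAR and FOXO genes (-0.51). Under upper-quartile scaling the median of all genes was 0.20, with 7627 higher and 4915 lower. The list medians then moved to 0.11 for the partners, -0.08 for pyruvate supply (5 higher, 5 lower) and 0.18 for the other TCA cycle genes (8 higher, 5 lower). They moved to 0.38 for the cofactors (5 higher, 0 lower) and -0.09 for the sister dehydrogenases (2 higher, 1 lower). They stayed negative for the regulators (-0.38), the hypoxia genes (-0.33; 3 higher, 6 lower) and the PPAR and FOXO genes (-0.57; 1 higher, 8 lower). Without WT replicate 1 the regulators' median was -0.90, with 0 higher and 10 lower.

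Endothelial markers fell along with these genes: 6 of 6 were lower in KO at day 15, and their summed level was 50.7 to 65.8 CPM against 171 to 235 CPM in WT, with no marker at 0 throughout a group. Progenitor markers were lower in 7 of 7, or in 5 of 7 with the offset, at 531 to 553 against 1250 to 1413 CPM. Astrocyte markers were lower in 5 of 7, at 244 to 258 against 507 to 590 CPM. The astrocyte marker Aqp4 was called higher (0.68, adjusted p = 0.0145, edgeR). Of 6 microglia markers 1 was higher and 3 were lower, as were 1 and 3 of 5 pericyte and smooth muscle markers. Of 6 oligodendrocyte markers 2 were higher and 3 lower. Erythroid markers were higher in 6 of 6, at 3563 to 4373 against 953 to 1234 CPM, and 2 of 8 neuron markers were higher and 4 lower. The fibroblast markers summed to 60.8 to 114 CPM in KO and 211 to 3876 CPM in WT, the highest being WT replicate 1. Cartilage and bone markers summed to 40.7 to 45.5 CPM in KO and 87.3 to 555 CPM in WT. Skeletal muscle markers summed to 3.39 to 13.3 CPM in KO and 3.44 to 40.5 CPM in WT. WT replicate 1 was the highest in both. The part of these markers in the day 15 values of the 9 genes was not tested.

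With age in KO brain, more genes of each list were higher than lower, where 37.6% of all genes were higher. Pyruvate supply had 11 of 13 genes higher and 0 lower (median log2 fold change 1.91), with Ldhb, the lactate dehydrogenase subunit of oxidative tissue, at 826 ± 65.1 against 79.3 ± 6.80 CPM and Pcx at 139 ± 9.21 against 12.2 ± 1.51 CPM. The other TCA cycle genes had 15 of 16 higher and 1 lower (median 1.29), among them Ogdhl (2.67). Of the partners 4 of 5 were higher (median 0.33; 2 of 5 and 0.08 under upper-quartile scaling), among them Pdp1 (1.35, adjusted p = 8.37e-07, edgeR) and Pdhx, which tethers E3 (0.70, adjusted p = 4.16e-05, edgeR). The cofactor list had 7 of 12 higher and 0 lower (median 0.46), with Bola3 (1.48) and the thiamine carrier Slc19a3 (3.07), and the sister dehydrogenases 6 of 7 higher and 1 lower (median 1.54), with Ppm1k (2.41) and Aass (4.19).

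The regulators of kinase transcription had 11 of 16 higher and 3 lower between day 15 and week 70 KO (median log2 fold change 2.12), among them Epas1 at 5.39 and the glucocorticoid receptor gene Nr3c1 at 3.30. The hypoxia genes had 7 of 12 higher and 3 lower (median 1.14), with Ndrg1 (3.43) and Bnip3 (2.93), and the PPAR and FOXO genes 11 of 14 higher and 1 lower (median 1.49), among them Irs2 (2.74), each named gene being called. Endothelial markers were higher in 6 of 6 at week 70, at 292 to 319 CPM in all, and microglial markers in 6 of 6, while erythroid markers were lower in 6 of 6.

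**Figure D5:**
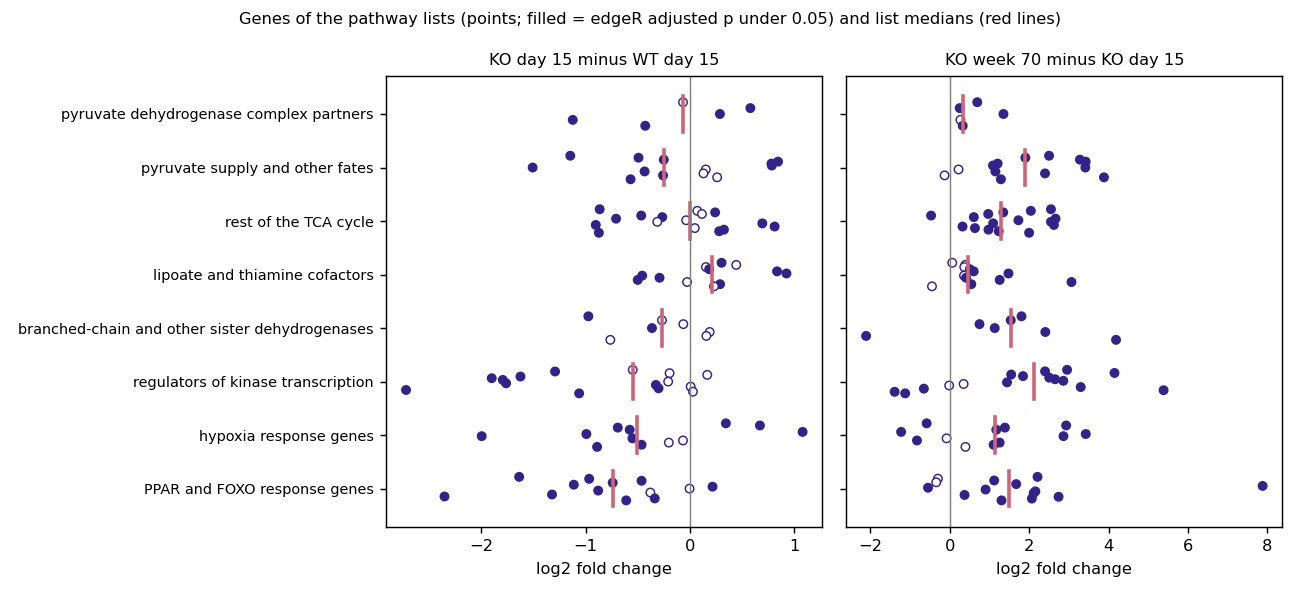
Log2 fold changes of the genes in the 8 functional lists for day 15 KO against WT and for week 70 KO against day 15 KO, 1 point per gene with the list median. At day 15 the medians run from -0.74 for the PPAR and FOXO genes to 0.21 for the cofactor genes, and all are above 0 for week 70.

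The genes whose profile over the 8 libraries lay closest to a member's, by the root mean square difference of centred log2 CPM among 13020 candidates, were as follows. For Pdk2 they were Arsb (0.147), Plpp3 (0.174) and Sstr3 (0.19), and for Pdk4 they were Tmem59l (0.163), Tspan7 (0.169) and Dlgap1 (0.18). Pdk1 had closer profiles, Plekha3 (0.06), Mtmr6 (0.0685) and Ubxn8 (0.079), as did Pdk3, with Epb41l3 (0.0675), Ahcy (0.0799) and the long non-coding RNA Norad (0.0847). Pdha1 was closest to Pja2 (0.043), Rimbp2 (0.0529) and Tmeff2 (0.0548). The 5 sets held no gene in common.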

How the data were processed

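Whole-brain poly(A) RNA of 8 libraries was sequenced on an Illumina instrument, per the labels' protocols. The authors deposited raw read counts per gene, and the submitters' processing notes name FastQC, cutadapt, Trimmomatic, HISAT2, featureCounts, edgeR and the builds GRCm38 and GRCm39, with no role or version. Use of strand and treatment of multi-mapping reads are not given in the sources used here, so near-identical copies are uncertain. A processed pseudogene close to Pdha1 was not analysed here. Groups followed the sample titles, and each column carried 1 title.

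Genes were kept by filterByExpr and tested two-sided with edgeR 4.0.16 (R 4.3.3): TMM scaling, quasi-likelihood F-test, Benjamini-Hochberg adjustment over all genes, threshold 0.05, with only the 2 groups compared in each fit. Standard errors are those implied by F. Levels used TMM over all 8 libraries. Shares and ratios used the longest transcript of GENCODE M21 (GRCm38), matched to 33365 of 34299 gene identifiers, and exact permutation tests. The count tests were tested on simulated data in which 200 genes changed by 1 on the log2 scale. There 11.7% to 12.8% of edgeR calls were false, above the nominal share, and 45% to 68% of the changed genes were recovered. Far more genes were called in the real data, so these shares need not carry over. Calls near the threshold, such as those of Pdk1 and Pdk4 at day 15, remain uncertain. Depth was 14110031 to 20833397 counts per library, and 3 counts equal 0.144 to 0.213 CPM before TMM scaling, which covers counting error only.

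The members and lists were chosen with earlier results of these data known. Named genes were the 9 members, the 2 genes of each list with the smallest adjusted p in each of the first 2 comparisons, and the 3 genes nearest in profile to the kinases and Pdha1. Some genes that this rule names are not reported here. Alternatives were other scalings, filters, DESeq2 1.42.0, all libraries in one fit, a replicate block, a length and GC offset (mgcv 1.9.3), removal of haemoglobin and mitochondrially encoded genes, other gene lengths and leaving out each library. List counts with the offset, under other scalings and without WT replicate 1 were added after seeing the data.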

Additional observations from a re-analysis of the deposited data

How the results depend on the processing

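None of the alternatives scaled the counts by library totals alone. In both comparisons with week 70, every call on the 9 genes kept its direction and its side of the threshold under all 15 alternatives. At day 15 the same held for Pdk2, Dlat, Cs and Ogdh under all 16, with log2 fold changes of -1.76 to -1.22, -0.74 to -0.48, -1.14 to -0.88 and -1.47 to -0.89. The number of members called higher at day 15, which was 2, was 1 with no filter on low counts, 1 with the length and GC offset together with the replicate block, and 1 to 2 when libraries were left out in turn. The call lost was that of Pdk1 with no filter, and that of Pdhb (0.21, adjusted p = 0.0623, edgeR) with the offset and block. Pdha1, which was not called, reversed under upper-quartile scaling, from -0.09 to 0.079, with the shift that this scaling gave all genes (median 0.03 to 0.20). Same-numbered day 15 libraries correlated at -0.144, -0.169 and -0.146, so the numbers do not pair them, and no library of that comparison correlated best with its own number. The replicate block called 11184 of 19147 genes at day 15 against 11993 without it, and among the members it ended the call of Pdk4 alone (-0.74, adjusted p = 0.0577, edgeR). In the comparisons with week 70 the block left out replicate 3 of the day 15 group. Leaving out 1 week 70 library leaves 1, which is assumed to vary like the other group. With no filter 36% of 33334 genes were called at day 15, against 62.6%. Adding pseudogene counts to the members was not run, since no such counts were analysed here. Depth limits Pdk4 most, at 13 to 35 counts per fetal library.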
